A study of Homo sapiens with 8 samples.

Results

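The mRNAs of the 10 subunits of the COP9 signalosome were followed in CAKI1 cells, an established human renal carcinoma line, with and without iron-loaded lipocalin-2. The members were GPS1, COPS2, COPS3, COPS4, COPS5, COPS6, COPS7A, COPS7B, COPS8 and COPS9, taken by gene symbol from a table of 16782 genes. All 10 were found in the table, and all 10 passed the filter on low values that left 15593 genes for testing. The subunits were brought together because COPS9 had already been seen to be lower with the stimulus in these libraries. COPS9 was therefore chosen by the contrast described here, and its values are given as a description, with no p. The question was whether COPS9 differed alone or together with the rest of its complex.

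The 4 control samples were serum-starved CAKI1 cells without stimulus. The 4 hLcn-2 samples were serum-starved in the same way and then received human holo-lipocalin-2, the iron-carrying form of this secreted siderophore-binding protein, at 5 µg/mL for 24 h. No transgene, knockout or selected clone was part of the design, and all samples came from 1 cell line. The labels number the samples N1 to N4 in each group but do not say whether the numbers stand for separate cultures, so the p-values measure only the spread between these samples. Libraries were made with a 3′ tag kit and molecular identifiers, in which a read stands for a molecule near the polyadenylated end and does not scale with transcript length. Normalized counts of different subunits were therefore set side by side without a length correction. How completely the 3′ end of each gene was captured was not examined, so levels of different genes are compared as counts only. The unit is reads per 1000000 of a scaled library size (CPM).

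The COP9 signalosome removes the ubiquitin-like protein NEDD8 from cullins, the scaffolds of the cullin-RING ubiquitin ligases, and so switches these ligases off and lets their substrate receptors be exchanged. The cleavage is done by COPS5, a zinc metalloprotease of the MPN family, which sits in the complex beside its inactive relative COPS6. GPS1, COPS2, COPS3, COPS4, COPS7A, COPS7B and COPS8 carry PCI domains and build the frame of the complex, and COPS7A and COPS7B take the same place in alternative assemblies. COPS9, also called CSNAP, is the smallest subunit. The proteasome lid and the translation factor eIF3 are built from related PCI and MPN proteins, and the lid holds a very small acidic subunit of its own, SEM1. One cullin-RING ligase, built on CUL3 with KEAP1 as its receptor, degrades NRF2, the transcription factor of the antioxidant response.

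COPS9 (ENSG00000172428) lies on the minus strand of chr2:240126563-240136807 of GRCh38 and has 3 exons in its canonical GENCODE 44 transcript of 418 nt. Its coding sequence of 174 nt encodes 57 residues, whereas the other 9 subunits encode 209 to 487 residues. The coding sequence is shown spliced, because the small size of the product sets COPS9 apart in the complex and the letters give its whole reading frame. Without its stop codon it runs over chr2:240131054-240136284, minus strand, and the start and stop codons are in capitals.
COPS9 coding sequence: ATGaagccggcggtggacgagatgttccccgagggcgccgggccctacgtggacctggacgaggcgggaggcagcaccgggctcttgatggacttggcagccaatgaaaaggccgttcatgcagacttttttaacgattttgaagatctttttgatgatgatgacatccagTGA
The 250 bases before the COPS9 transcription start are shown because this is the promoter of the gene on which the comparison turns. They come from RefSeq promoters on GRCh38.p14, chr2:240136306-240136555, minus strand, and the capitals mark CCGGAAG, a core of the sites that ETS-family factors bind.
COPS9 upstream sequence: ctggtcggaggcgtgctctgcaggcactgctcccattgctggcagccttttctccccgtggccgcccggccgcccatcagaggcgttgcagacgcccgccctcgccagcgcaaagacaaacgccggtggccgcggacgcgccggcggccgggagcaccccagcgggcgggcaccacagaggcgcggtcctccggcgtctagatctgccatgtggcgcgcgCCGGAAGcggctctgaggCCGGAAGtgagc
The first CCGGAAG began 30 bases and the second 12 bases before the transcription start.

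Of the 10 subunits, 9 had an entry in the RefSeq promoter table, whose windows run from 250 bases before to 50 bases after the start. COPS5 had no entry. CCGGAAG, searched on both strands, was found in 4 of these 9 members (GPS1, COPS7A, COPS7B and COPS9) and in 12.2% of all 27305 genes of the table. TGACNNNGC, the core of the antioxidant response element, was found in 4 of 9 members (GPS1, COPS3, COPS7A and COPS8) and in 16.1% of all genes. TGATGNAA, a short form of the composite element that ATF4 binds, was found in 0 of 9 members and in 4.46% of all genes. These are matches of letters only. The fitted log2 fold changes of the members with CCGGAAG were −0.48 for COPS9, −0.30 for GPS1, 0.04 for COPS7B and 0.20 for COPS7A. Whether the letters bear on these values was not tested.

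COPS9 had 70.9, 68.3, 71.4 and 79.0 CPM in control samples N1 to N4 and 52.6, 52.8, 43.0 and 59.6 CPM in hLcn-2 samples N1 to N4. All 4 hLcn-2 samples lay below all 4 controls, and the groups did not overlap. The mean was 72.4 ± 4.62 CPM in controls and 52.0 ± 6.84 CPM with hLcn-2 (SD, n = 4 each). The fitted log2 fold change was −0.48 with a standard error of 0.14, or 0.10 when same-numbered samples were compared within pairs. Within the pairs, the hLcn-2 level was 0.742 times the control level in N1, 0.774 times in N2, 0.602 times in N3 and 0.754 times in N4. The 95% counting intervals of these ratios were 0.669 to 0.822, 0.684 to 0.874, 0.472 to 0.760 and 0.606 to 0.942. They cover counting error only. Each of them lay below 1, which is a description and no test, because COPS9 was chosen on this contrast. In pair N1 the interval also lay below 1 for GPS1 (0.612 to 0.892) and COPS2 (0.819 to 0.944). The same held there for COPS3 (0.701 to 0.837) and COPS6 (0.667 to 0.766). In N1 it lay above 1 for COPS4 (1.02 to 1.31), COPS7A (1.13 to 1.40) and COPS8 (1.04 to 1.22). For COPS8 it was above 1 in N4 too (1.03 to 1.59). Every other interval of the other subunits included 1.

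**Figure D1:**
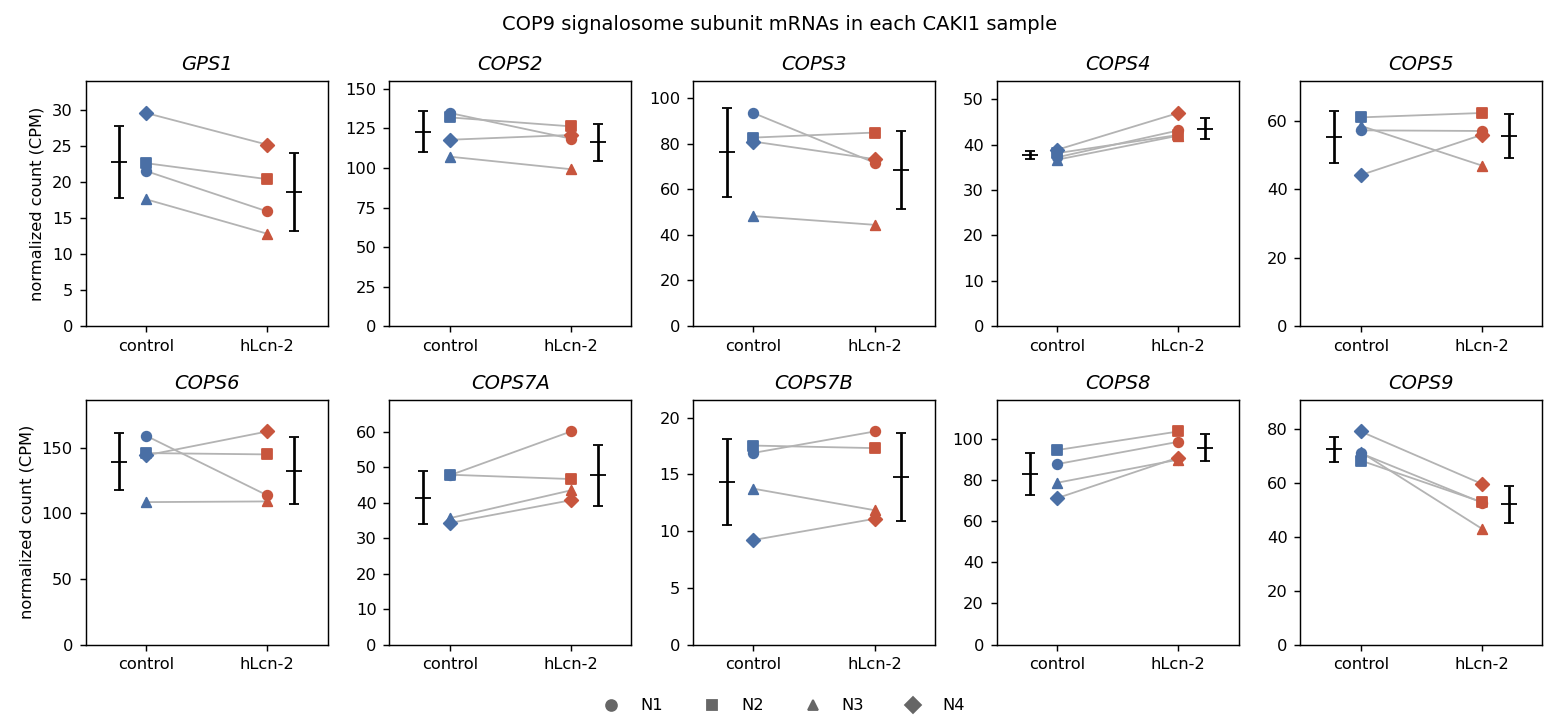
Normalized counts (CPM, vertical axis from 0) of the 10 COP9 signalosome subunits in 4 control and 4 hLcn-2 samples. Grey lines join same-numbered samples, the marker shape gives the number, and the black bars are mean ± SD. COPS9 lies between 68.3 and 79.0 CPM in controls and between 43.0 and 59.6 CPM with hLcn-2, and COPS4 is the other subunit whose groups do not overlap, with the hLcn-2 samples above the controls.

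Among the 10 subunits, 1 (COPS9) had all hLcn-2 samples below all controls, a pattern that 0.988% of all tested genes showed. Another 1 (COPS4) had all hLcn-2 samples above all controls, a pattern that 0.891% of tested genes showed. COPS9 and GPS1, 2 of 10, were lower in 4 of 4 pairs, against 10.9% of tested genes. COPS4 and COPS8, 2 of 10, were higher in 4 of 4 pairs, against 9.93% of tested genes. Because COPS9 was selected on this contrast, nothing is read from the counts in which it takes part.

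The test across all 15593 genes is given for the 9 subunits that the choice did not rest on. Without the pairing, 0 of 9 passed an adjusted p of 0.05 with limma, where 0.0% of all genes were called. With the replicate number as a block, limma again called 0 of 9 subunits and 0.282% of all genes. The edgeR quasi-likelihood test with the block called 0 of 9 and 1.49% of all genes. For these 9 subunits, limma with the block gave adjusted p of 0.345 to 0.981 and edgeR with the block gave 0.305 to 0.978. At an unadjusted p of 0.05 in limma, 0 of these 9 passed without the block, where 2.28% of all genes did. With the block, 2 of 9 (GPS1 and COPS8) passed, where 12.2% of all genes did. Their median log2 fold change was 0.01, beside 0.000826 over all tested genes, with 5 higher and 4 lower. None of their blocked 95% intervals reached beyond −0.58 or 0.43, so a change of 1 log2 unit lies outside all of them, whereas changes of the size seen in COPS9 lie inside the interval of GPS1.

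**Figure D2:**
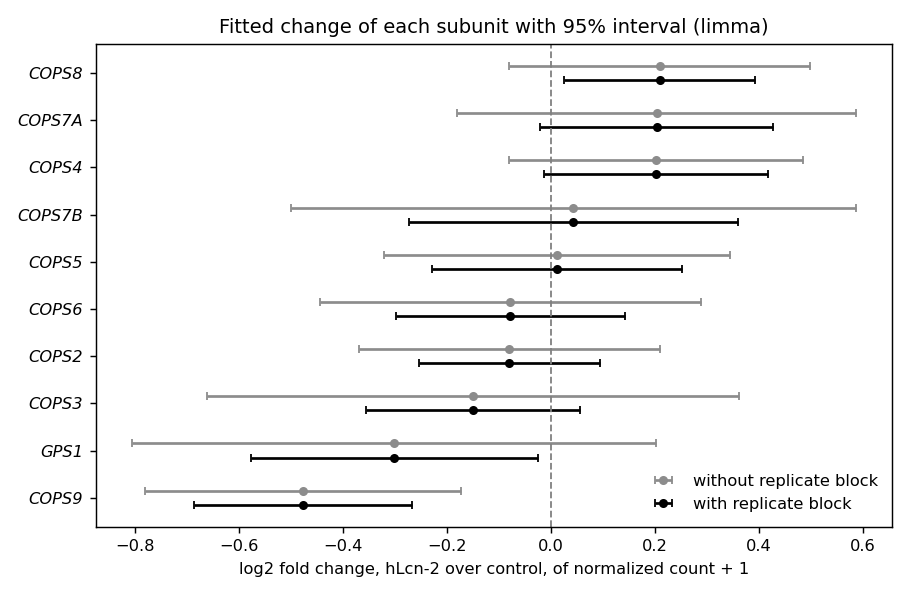
Fitted log2 fold change (hLcn-2 over control, horizontal axis) of each subunit with its 95% limma interval, in grey without and in black with the replicate block. COPS9, at −0.48, was chosen on this contrast, and the other 9 subunits run from −0.30 for GPS1 to 0.21 for COPS8.

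Of the catalytic pair, COPS5, the deneddylating enzyme, had 57.2, 61.0, 58.5 and 44.1 CPM in controls and 57.0, 62.3, 46.9 and 55.9 CPM with hLcn-2. The groups overlapped over almost their whole range, and 2 pairs were higher and 2 lower. The log2 fold change was 0.01 (blocked 95% interval −0.23 to 0.25). COPS6, the catalytically inactive MPN partner, was the most abundant subunit in 7 of 8 samples, with 159, 146, 109 and 144 CPM in controls and 114, 145, 109 and 162 CPM with hLcn-2. Its N1 pair dropped by 0.48 on the log2 scale and its N4 pair was 0.17 higher, so that the pairs did not share a direction. The log2 fold change was −0.08 (blocked interval −0.30 to 0.14, adjusted p = 0.811 with limma). COPS5 lies on chr8:67043079-67083783 (minus strand) and COPS6 on chr7:100088969-100092187 (plus strand).

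GPS1 (chr17:82050691-82057470, plus strand), the subunit known as CSN1, had 21.6, 22.7, 17.6 and 29.6 CPM in controls and 15.9, 20.4, 12.8 and 25.2 CPM with hLcn-2. Every pair was lower, but the groups overlapped because the samples of 1 group differed among themselves by more than the pairs did. The log2 fold change was −0.30 ± 0.13 (SE with the block), and its adjusted p was 0.362 with limma. It ran from −0.15 without hLcn-2 N3 to −0.46 without hLcn-2 N4, and was −0.17 without control N4 and −0.41 without control N3. GPS1 was a low-count subunit, with 26 to 306 reads per sample, and the counting interval of the ratio included 1 in pairs N2, N3 and N4.

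COPS4 (chr4:83034447-83075818, plus strand), a PCI subunit that lies close to COPS5 and COPS6 in the assembled complex, had 37.2, 38.1, 36.7 and 38.9 CPM in controls. It had 43.1, 42.1, 42.0 and 47.0 CPM with hLcn-2, each of them above every control. The mean was 37.7 ± 0.970 CPM in controls and 43.5 ± 2.34 CPM with hLcn-2 (SD, n = 4 each), the tightest control group of the 10 subunits at a coefficient of variation of 2.57%. With 59 reads in control N4, counting error alone exceeds such a spread, so the tightness is not read as stable expression. The counting interval of the ratio included 1 in pairs N2, N3 and N4. Its log2 fold change of 0.20 (blocked interval −0.01 to 0.42) did not pass the test, with an adjusted p of 0.451 in limma. The change was 0.12 in reads thinned to the depth of the shallowest library.

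COPS8 (chr2:237085882-237100474, plus strand), the smallest of the PCI subunits, had 87.7, 94.5, 78.6 and 71.1 CPM in controls and 98.5, 104, 89.9 and 90.9 CPM with hLcn-2. All 4 pairs were higher, while the highest control, N2, lay above the 2 lowest hLcn-2 samples. The log2 fold change was 0.21 (blocked interval 0.03 to 0.39, adjusted p = 0.345 with limma). COPS7B, COPS8 and COPS9 are all on chromosome 2, with 3026089 bp between COPS8 and COPS9 and 5276628 bp between COPS7B and COPS8. Their log2 fold changes were 0.04, 0.21 and −0.48.

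The paralogs COPS7A (chr12:6724014-6731875, plus strand) and COPS7B (chr2:231781671-231809254, plus strand) occupy the same position in the complex. COPS7A had 47.7, 47.9, 35.6 and 34.2 CPM in controls and 60.0, 46.6, 43.4 and 40.7 CPM with hLcn-2, higher in 3 of 4 pairs. COPS7B, the scarcest subunit in 7 of 8 samples, had 16.9, 17.6, 13.7 and 9.22 CPM in controls and 18.8, 17.3, 11.8 and 11.1 CPM with hLcn-2. COPS7B made up 25.5 ± 2.95% of the summed paralogs in controls and 23.4 ± 2.68% with hLcn-2 (SD, n = 4), and the share was lower in 2 of 4 pairs. COPS7A had a log2 fold change of 0.20, and of 0.0889 without hLcn-2 N1 or 0.12 without control N4. Neither paralog passed the test, with limma adjusted p of 0.472 for COPS7A and 0.937 for COPS7B with the block.

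COPS2 (chr15:49106068-49155661, minus strand) and COPS3 (chr17:17246616-17281273, minus strand) complete the PCI frame. COPS2 had 135, 132, 107 and 118 CPM in controls and 119, 126, 99.2 and 121 CPM with hLcn-2. COPS3 had 93.5, 82.7, 48.3 and 81.0 CPM in controls and 71.7, 84.9, 44.4 and 73.3 CPM with hLcn-2. Both were lowest in the N3 samples of either group, and both were lower with hLcn-2 in 3 of 4 pairs. Their log2 fold changes were −0.08 and −0.15, with limma adjusted p of 0.744 and 0.572 with the block. Without hLcn-2 N3 they were −0.00654 and 0.0419.

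By level over all 8 samples, COPS6 (136 CPM) and COPS2 (120 CPM) headed the complex, followed by COPS8 (89.3), COPS3 (72.5), COPS9 (62.2), COPS5 (55.4), COPS7A (44.5), COPS4 (40.6), GPS1 (20.7) and COPS7B (14.6). The ranges of neighbours overlapped in every step of this order except the step from COPS4, at 36.7 CPM or more, to GPS1, at 29.6 CPM or less. COPS9 held rank 4 or 5 of 10 in the controls and rank 5 to 7 with hLcn-2. The highest subunit exceeded the lowest 10.3 ± 3.61 times in controls and 9.91 ± 3.24 times with hLcn-2 (SD, n = 4). In the bulk RNA, fewer expressing cells and less RNA per cell cannot be told apart.

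The 9 other subunits summed to 593 ± 69.9 CPM in controls and 593 ± 65.8 CPM with hLcn-2 (SD, n = 4). The summed level was higher in 2 pairs and lower in the other 2. COPS9 took 9.76%, 9.61%, 12.4% and 12.2% of the counts of all 10 subunits in controls N1 to N4 and 8.10%, 7.53%, 7.92% and 8.67% with hLcn-2. The share averaged 10.98 ± 1.503% in controls and 8.05 ± 0.475% with hLcn-2 (SD, n = 4), and its groups did not overlap. The log2 ratio of COPS9 to the other 9, which does not depend on the library size, was −3.03 ± 0.22 in controls and −3.51 ± 0.09 with hLcn-2. Its difference was −0.30, −0.38, −0.72 and −0.54 in pairs N1 to N4. This ratio contains COPS9 itself and is a description, as are the ranks that follow.

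Within pairs, COPS9 had the lowest log2 difference of the 10 subunits in N2, N3 and N4, and the second lowest in N1, where COPS6 was lower. The differences of COPS9 were −0.42, −0.36, −0.72 and −0.40. The median of the other 9 subunits was −0.00467, −0.00990, −0.11 and 0.24 in the same pairs, beside a median over all tested genes of −0.02, 0.01, −0.05 and 0.04. The lowest of the other 9 was GPS1 in N2, N3 and N4, at −0.14, −0.43 and −0.22. In pair N4, 7 of the 9 other subunits were higher with hLcn-2, and in each of the other pairs 4 of 9 were.

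**Figure D3:**
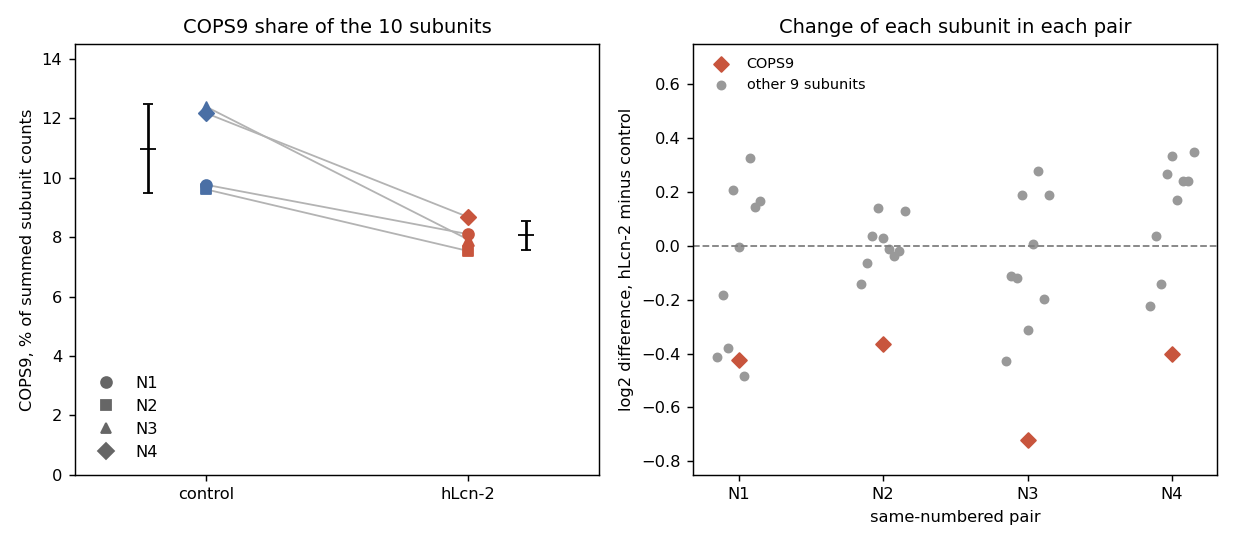
Left, COPS9 as a percentage of the summed normalized counts of the 10 subunits in each sample, with same-numbered samples joined and black bars for mean ± SD (n = 4). Right, log2 difference (hLcn-2 minus control) of COPS9 (red) and the other 9 subunits (grey) in each pair, where COPS9 is the lowest point in N2, N3 and N4 and COPS6 is lower in N1.

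Over the 8 samples, which share 4 numbers and 2 conditions and differ in depth, the subunits did not move as 1 block. The highest correlation of log2 level between subunits was that of COPS2 and COPS3 (r = 0.948), followed by COPS3 and COPS6 (r = 0.830), COPS7A and COPS7B (r = 0.814) and COPS7A and COPS8 (r = 0.814). COPS9 had its highest r with GPS1 (0.754) and its lowest with COPS8 (−0.654) and COPS4 (−0.628). With COPS5, the catalytic subunit, r was 0.013. These are descriptions over n = 8 samples, and the condition on which COPS9 was chosen contributes to each. With every sample taken relative to the mean of its own group, r with COPS9 was 0.852 for GPS1, 0.738 for COPS4 and −0.238 for COPS8, so the sign for COPS4 was opposite.

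Among 9005 genes with a mean of at least 10 CPM, the patterns most like that of COPS9 over the 8 samples were those of DMTF1 (r = 0.985), S100A4 (0.964), CBR1 (0.949), ENSG00000227992 (0.940) and AP4S1 (0.938). DMTF1 encodes a cyclin D-binding transcription factor, S100A4 a calcium-binding protein, CBR1 a carbonyl reductase and AP4S1 the small subunit of an adaptor complex. DMTF1 had 29.3 ± 1.81 CPM in controls and 22.8 ± 2.32 CPM with hLcn-2, and CBR1 had 212 ± 11.4 and 170 ± 10.2 CPM (SD, n = 4). The likeness includes the difference between conditions on which COPS9 was chosen. GPS1, the nearest subunit, stood at rank 188 of the 9005 genes, and COPS8, the farthest, at rank 8527.

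In the proteasome lid, 0 of 9 measured subunits were called, and their median log2 fold change was 0.01. This held for limma without the block (0.0% of all tested genes called), limma with the block (0.282%) and edgeR with the block (1.49%). At shares this low, 0 calls in a short list, here or in eIF3, is not read as absence of change. SEM1, the small acidic lid subunit, had 546, 555, 467 and 532 CPM in controls and 688, 574, 499 and 532 CPM with hLcn-2. The ratio of COPS9 to SEM1 was 0.139 ± 0.0144 in controls and 0.0917 ± 0.0150 with hLcn-2 and was lower in 4 of 4 pairs. This ratio contains COPS9, which was chosen on this contrast, and is a description only. PSMD6, a PCI subunit of the lid, had 38.0 ± 12.1 and 42.3 ± 4.71 CPM, a log2 fold change of 0.21 ± 0.23 (SE). In eIF3, 0 of 13 were called and the median was 0.03. The eIF3 subunits with the smallest p were EIF3C (0.611 ± 0.556 against 1.30 ± 0.437 CPM) and EIF3L (1.05 ± 0.646 against 0.399 ± 0.364 CPM), levels that are worth fewer than 3 reads in the shallowest library.

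The cullins and their partners, on which the signalosome acts, gave no call in these fits either. Over all tested genes the share called was 0.0% with limma, 0.282% with limma and the block and 1.49% with edgeR and the block. No absence of change is read from 0 calls at such shares. In the cullin-RING core of cullins, RING proteins and adaptors, 0 of 14 genes were called, with 9 higher, 5 lower and a median log2 fold change of 0.04. SKP1, the adaptor of CUL1 ligases, stood at 358 ± 27.4 CPM in controls and at 412 ± 12.4 CPM after the stimulus, with 4 of 4 pairs higher, but its limma adjusted p with the block was 0.265. CUL4A had 133 ± 8.21 and 157 ± 27.2 CPM (adjusted p = 0.359 with limma and the block). CUL3, scaffold of the ligase for NRF2, had 38.6 ± 4.28 and 35.0 ± 5.20 CPM and was lower in 4 of 4 pairs (limma adjusted p with the block = 0.633), and its receptor KEAP1 had 79.0 ± 13.7 and 74.5 ± 11.8 CPM (0.793).

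Of the neddylation genes, which attach what the signalosome removes, 0 of 10 were called, with a median log2 fold change of 0.05. In the same fits at most 1.49% of all tested genes were called, so the counts of 0 here are not read as absence of change. NEDD8 had 301 ± 74.1 CPM in controls and 306 ± 17.9 CPM with hLcn-2. NAE1, a subunit of the NEDD8-activating enzyme, had 102 ± 9.45 and 108 ± 2.77 CPM, and DCUN1D4, a NEDD8 ligase cofactor, had 65.4 ± 4.84 and 70.0 ± 4.67 CPM. Of the genes for receptor exchange and further deneddylation, 4 of 5 listed were in the table and 0 of 4 were called, with a median of −0.10. CAND1, the exchange factor that binds cullins free of NEDD8, had 138 ± 16.8 and 146 ± 10.7 CPM. USP15, a deubiquitinase that associates with the signalosome, had 61.4 ± 5.71 and 52.7 ± 6.03 CPM, and SENP8, which processes NEDD8, had 3.88 ± 1.12 and 3.01 ± 1.03 CPM. Of 24 substrate receptors 0 were called and the median was 0.00341, with KLHL20 at 37.7 ± 3.53 and 42.2 ± 5.07 CPM and ZYG11B at 118 ± 36.6 and 136 ± 38.0 CPM.

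**Figure D4:**
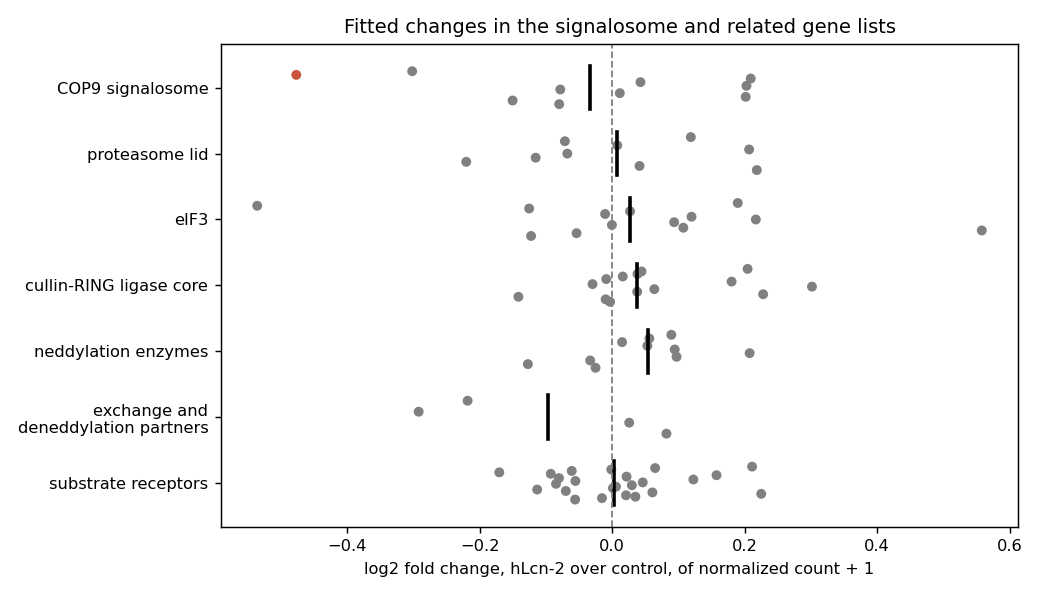
Fitted log2 fold change (hLcn-2 over control, horizontal axis) of every tested gene in the COP9 signalosome and 6 related lists. Each point is 1 gene, COPS9 is red and the black bars are list medians, which run from −0.10 for the exchange and deneddylation partners to 0.05 for the neddylation enzymes.

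Several properties of the genes bear on how well the subunits could be counted. No exon of COPS3, COPS4, COPS6, COPS7A, COPS8 or COPS9 overlaps an exon of another annotated gene. Overlap with introns was not examined. GPS1, COPS2, COPS5 and COPS7B overlap neighbours, RFNG, GALK2, CSPP1 with PPP1R42, and PDE6D with RPL28P2. None of these reaches the last exon of the subunit's canonical transcript, where a 3′ tag of that transcript falls. The 3′ ends of other transcripts were not examined. By name, COPS5 has 2 and COPS8 has 3 annotated pseudogenes with which reads could be shared, and their counts are uncertain to that degree. COPS9 was covered by 87 to 1007 reads per sample and COPS7B by 14 to 240.

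The libraries held 1501563 to 13953090 reads, a range of 9.29 times, with the shallowest among the controls (N4) and the next among the hLcn-2 samples (N3). Without the block, limma called 0 of 15593 genes, with 355 at an unadjusted p under 0.05, where edgeR had 324 and DESeq2 284 and also called none. With the block, limma called 44 genes, 34 higher and 10 lower, and 14, 3, 0 and 58 genes without pair N1, N2, N3 or N4. Of 10 markers of renal epithelial and carcinoma cells, 9 were in the table (PAX8, PAX2, KRT8, KRT18, CDH1, CDH2, EPCAM, VIM and MET) and CA9 was not. They summed to 2869 to 3865 CPM in controls and 3212 to 4103 CPM with hLcn-2. The highest were VIM (1664 ± 310 and 1874 ± 319 CPM) and MET (956 ± 56.9 and 941 ± 111 CPM). The lowest was PAX2 (2.52 ± 1.85 and 2.97 ± 0.647 CPM). CDH1 was higher in N3 and N4 than in N1 and N2 of both groups. It had 13.5, 9.30, 43.9 and 52.7 CPM in controls N1 to N4 and 9.26, 16.8, 56.8 and 63.1 CPM with hLcn-2. CDH2 (416 ± 75.7 and 509 ± 57.0 CPM) and EPCAM (23.2 ± 2.49 and 26.4 ± 1.77 CPM) had the smallest p of the 9 markers, and no marker was called. Of 8 markers of leukocytes, endothelium, fibroblasts and hepatocytes, 4 were in the table (CD14, COL1A1, PDGFRB and ALB), and they summed to 6.35 to 7.24 CPM in controls and 3.95 to 7.61 CPM with hLcn-2. COL1A1 was at 4.63 ± 1.38 and 3.58 ± 0.745 CPM and ALB at 0.518 ± 0.434 and 0.805 ± 0.496 CPM.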

How the data were processed

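The 8 libraries were 3′ tag mRNA-seq of total RNA from CAKI1 cells. The authors aligned reads to GRCh38 with STAR, collapsed them by molecular identifier, counted them per gene with HTSeq and normalized them with edgeR. The strand setting and annotation release were not given in the sources used here. The deposited values are a normalized signal per gene, in reads per 1000000 of a scaled library size (CPM). All 134256 values came out as whole reads (within 0.01 read), with 1501563 to 13953090 reads per sample, and a count of 3 reads equalled 0.211 to 1.98 CPM. The table held 1 cell with a decimal comma, which was read as a point. Of 2810 rows without a symbol, 2645 were named from GENCODE 44 by gene ID.

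The 15593 genes that reached 1 CPM in 2 or more samples were tested on log2(normalized count + 1) with limma 3.58.1 in R 4.3.3, two-sided with an intensity trend and Benjamini-Hochberg adjustment over all tested genes. Fold changes are on this scale and understate changes of low genes. The edgeR 4.0.16 quasi-likelihood test and DESeq2 1.42.0 were run on the recovered reads as alternatives. The fits were also run on simulated data, and no result given here rests on that run. The labels give both groups the numbers N1 to N4. Deviations of same-numbered samples from their group means correlated at 0.48, 0.59, 0.61 and 0.31, each above 0.1. Differently numbered samples also passed 0.1 for control N1 with hLcn-2 N2 (0.23) and control N2 with hLcn-2 N1 (0.18), and were otherwise below 0. From the same-numbered values the numbers were taken to pair the samples. The fit with the replicate block was therefore reported beside the one without it. Other pseudocounts, filters, scalings, thinning of all libraries to a common depth and leaving out each sample or pair were also tried.

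The members and gene lists were chosen with earlier results of these data known. Named were the 10 members, from each other list the genes called with the block (there were none) and the 2 with the smallest unadjusted p without it, SEM1, CAND1, NEDD8, CUL3 and KEAP1, and the 5 genes most correlated with COPS9. The cell type markers found were also named, as was CA9, which was not found. Values were given for VIM and MET, the highest, PAX2, the lowest of the renal markers, and CDH1, whose level differed between the numbers. Counting intervals of pair ratios are exact 95% binomial intervals and cover counting error only.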

Additional observations from a re-analysis of the deposited data

How the results depend on the processing

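Without the pairing, 0 genes were called under every other pseudocount, filter, scaling and tool tried with all samples. With the replicate block, 44 genes were called by limma, 233 by edgeR, 173 by DESeq2 and 1 by limma on reads thinned once to the depth of the shallowest library, a step that lowers the depth of the other 7. With a single sample left out limma called 0 genes, and with a pair left out under the block it called 14, 3, 0 and 58 genes without N1, N2, N3 and N4. Counted over all 10 subunits, the number called was 1 with edgeR and with DESeq2 under the block and 0 in the other settings; that 1 is COPS9, which was chosen on this contrast, so the count is no test of it. The log2 fold change of COPS9 stayed negative, from −0.51 to −0.39 with all samples and from −0.54 to −0.39 with samples left out. Its log2 ratio to the other 9 subunits changed by −0.49, by −0.39 in thinned reads, and by −0.55 to −0.41 with samples left out, and other scalings and filters leave this ratio as it is. The median of the other 9 ran from −0.02 to 0.02, and from −0.10 to 0.12 with samples left out. COPS5 turned to −0.0196 with plain CPM and to −0.00336 with DESeq2, and COPS7B to −0.00310 in thinned reads with and without the block. With samples or pairs left out, GPS1 ran from −0.46 to −0.15, COPS2 from −0.14 to −0.00654, COPS4 from 0.17 to 0.22, COPS7A from 0.0889 to 0.28 and COPS8 from 0.14 to 0.27. With single samples left out, COPS5 ran from −0.0906 (without control N4) to 0.0886 (without hLcn-2 N3), COPS7B from −0.14 to 0.16, COPS3 from −0.35 to 0.0419 (above 0 without hLcn-2 N3) and COPS6 from −0.19 to 0.00789 (above 0 without hLcn-2 N3). With a pair left out under the block, COPS5 ran from −0.0961 to 0.12, COPS7B from −0.0239 to 0.12 (both below 0 without N4) and COPS6 from −0.16 to 0.0559 (above 0 without N1). The cause of these reversals was not tested. Depth limits the low subunits most: COPS7B had 14 reads in control N4.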
